A study of Mus musculus with 12 samples.

Results

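The miRNAs described here are those registered late, with a registry number of 1000 or more, in exosomes released by mouse ovarian granulosa cells. All entries of the count tables named mmu-miR-N with N of 1000 or more were taken, whatever their letter or arm, apart from a few numbers set aside by name, of which only miR-3074 was counted, in 3 entries. This gave 222 of the 637 entries, and the other 415 entries, all with lower numbers or let-7 names apart from miR-3074, served for comparison. Small RNA was sequenced from 12 libraries, 3 in each of 4 groups. Granulosa cells, which surround and nourish the oocyte, were kept for 24 h in medium free of exosomes, treated, and cultured for 48 h before the exosomes were spun down from the medium. CON cells were left untreated, and 100 μM of the iron salt ferric citrate was given in FAC. In DFO the same 100 μM was combined with 100 μM deferoxamine mesylate, which chelates iron, and in VE with 200 μM of VITE, the lipophilic antioxidant vitamin E. The comparisons with FAC ask how iron loading, and its combination with a chelator or an antioxidant, relates to the miRNA cargo of the exosomes.

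A miRNA is cut from a hairpin in a longer transcript, first by the Microprocessor complex of Drosha and Dgcr8 and then by Dicer, and its 5p or 3p arm guides an Argonaute protein to messenger RNAs, mainly through the seed, bases 2 to 8 from its 5′ end. Registry numbers follow the order of submission, so that the abundant and conserved miRNAs carry low numbers and most of the high numbers came from deep sequencing of rare RNAs. Many of the late entries lie in short introns. In a mirtron the hairpin is the whole intron, and the spliceosome makes both of its ends in place of the Microprocessor. In a tailed mirtron only one end of the hairpin is an intron end.

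Mature sequences of 194 of the 222 members were found in the RefSeq miRNA table of GRCm38.p6. The 6 abundant members below, shown because they carried most of the reads of the whole set, are written with the seed in capitals.
miR-1981-5p: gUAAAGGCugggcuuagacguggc
miR-1198-5p: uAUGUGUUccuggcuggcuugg
miR-1964-3p: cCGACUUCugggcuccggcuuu
miR-1839-5p: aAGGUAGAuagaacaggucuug
miR-3102-5p.2-5p: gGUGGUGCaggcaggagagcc
miR-3474: cCCUGGGAggagacguggauuc

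Of the 4 members that the study names, miR-5106, miR-5119 and miR-5128 had a sequence, and miR-1966-5p is named only.
miR-5106: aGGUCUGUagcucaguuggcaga
miR-5119: cAUCUCAUccuggggcugg
miR-5128: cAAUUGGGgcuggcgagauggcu

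The next members had the smallest adjusted p-values in the tests below, again with the seed in capitals, and miR-7661-3p is added because its seed was the same as that of miR-3077-3p.
miR-5110: gGAGGAGGuagagggugguggaauu
miR-6929-3p: cAGGUGCUgucuucuucuuccag
miR-1188-5p: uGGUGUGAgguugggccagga
miR-1934-3p: aGGAUGACgguggggcugguga
miR-3077-3p: cUGACUCCcugcuucuccgcag
miR-7661-3p: uUGACUCCcaguuucucucugc

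The seeds of the late members were nearly all different. The 194 sequences held 189 seeds, and 10 members shared a seed with another member of the table. The pair miR-1843a-5p and miR-1843b-5p differed by a shift of their ends, and the capitals below mark the run of 20 bases that they share. Reads of this run could be assigned to either entry, so that the levels of both are uncertain.
miR-1843a-5p: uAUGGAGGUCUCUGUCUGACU
miR-1843b-5p: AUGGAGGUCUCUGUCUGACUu

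The late entries differed from the other entries in base composition and in where their hairpins lie. The median GC content of the mature sequence was 58.3% in the 194 members and 47.8% in the 355 other entries with a sequence, and the median share of G was 34.9% and 23.8%. In the GENCODE M21 annotation, 158 of the 194 members (81.4%) lay within a protein-coding gene on the same strand, against 136 of the 355 others (38.3%). The end of the hairpin fell within 3 bases of an intron end for 82 of the 180 members with a hairpin in the table (45.6%) and for 2 of 332 others (0.602%). This was the case for 79.5% of members in the 6000 numbers and 72.0% of those in the 7000 numbers, and for none of those in the 5000 numbers or from 8000 upwards. Both ends matched an intron for 11 members, and the 3′ end alone for 71.

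The 3 hairpins below show the kinds of end, with the arms that were counted in capitals. The hairpins of miR-1981, in an intron of Marc2 on chromosome 1, and of miR-7068, within Cherp on chromosome 8, span an intron from end to end, and begin with gu and end with ag, the letters of a splice donor and acceptor. The hairpin of miR-6988, in an intron of Syvn1 on chromosome 19, only ends there. Marc2 encodes a mitochondrial reductase, and Syvn1 a ubiquitin ligase of the endoplasmic reticulum.
Mir1981: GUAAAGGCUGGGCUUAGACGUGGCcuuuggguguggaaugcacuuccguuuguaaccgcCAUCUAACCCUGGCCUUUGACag
Mir7068: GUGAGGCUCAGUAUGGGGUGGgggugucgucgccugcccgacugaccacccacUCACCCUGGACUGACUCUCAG
Mir6988: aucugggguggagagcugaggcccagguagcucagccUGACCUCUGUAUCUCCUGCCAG

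Of the 74 hairpins at an intron end, 68 ended with AG (91.9%), against 4 of 88 member hairpins not at an intron end (4.55%) and 21 of 240 hairpins of other entries (8.75%). Of the 35 3p members from hairpins at an intron end, 27 ended with AG themselves, as miR-6929-3p, miR-3077-3p and miR-6988-3p did. Among the 3p arms of the other entries this was so for 5 of 163. Hairpins at an intron end were defined by an end within 3 bases of it, where the AG of the splice acceptor lies. The high shares of AG in this class follow largely from that definition.

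**Figure D1:**
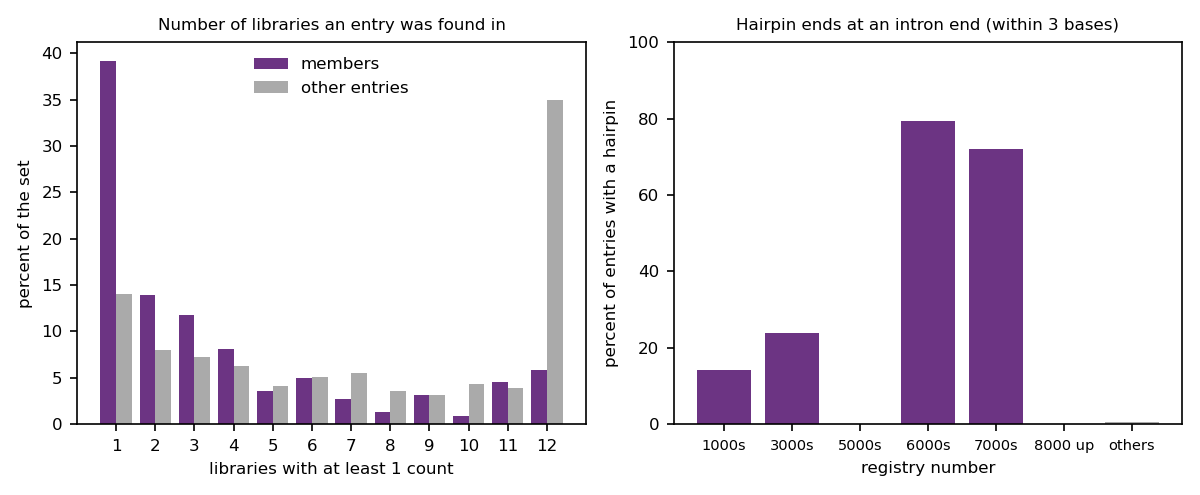
Left, the percent of the 222 members and of the 415 other entries (y axis) that were counted in a given number of the 12 libraries (x axis); right, the percent of entries with a hairpin whose hairpin ends within 3 bases of an intron end (y axis), by registry number and for the other entries. Members were counted in 1 library more often than in any other number of libraries (39.2%), and the hairpins at an intron end lie mostly in the 6000 and 7000 numbers.

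The libraries differed in depth and the set was a small part of each. The miRNA counts of a library ranged from 452021 to 1211227 in CON, from 5219420 to 7565362 in FAC, from 1373519 to 4877426 in DFO and from 2227419 to 3530978 in VE, of library totals of 22631206 to 24845945 reads. Levels are given as normalised CPM, counts relative to the miRNA counts of the library after a correction for composition (TMM), on which a floor of 3 counts was 0.351 CPM in the deepest library and 7.90 CPM in the shallowest. The tables hold miRNAs only, so the messenger RNAs that define granulosa cells were not measured. Of 9 miRNAs listed as known for blood, vessel, liver or muscle, 8 were in the tables, and their summed level ranged from 110903 to 133161 CPM in CON, from 52386 to 137341 in FAC, from 42452 to 169119 in DFO and from 111739 to 187138 in VE, nearly all of it miR-122-5p, known from liver and serum. The erythroid miR-144-3p and the myeloid miR-223-3p and miR-142a-3p were at 0 in 11 of the 12 libraries, while the erythroid miR-451a, from 8.61 to 3798 CPM, the vessel miR-126a-3p, from 0.345 to 155 CPM, and the muscle miR-206-3p, from 15.7 to 866 CPM, were counted in all 12. The part of RNA from serum or other cells in the results was not tested.

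The late members were found in few libraries each. Over the 12 libraries they held 387015 counts, 1.00% of all miRNA counts, and 83 counts in the median member, compared with 443 in the median of the other entries. Of the 222 members, 87 (39.2%) were counted in 1 library only and 13 (5.86%) in all 12, while 58 (14.0%) and 145 (34.9%) of the 415 other entries were. The 13 members counted in every library were miR-1981-5p, miR-1198-5p, miR-1964-3p, miR-3102-5p.2-5p, miR-1839-5p, miR-5099, miR-3474, miR-1843a-5p, miR-5106, miR-1943-5p, miR-3057-5p, miR-6944-3p and miR-6239.

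At least 1 count was found for 42, 58 and 54 members in the CON libraries, for 89, 137 and 54 in the FAC libraries, for 78, 84 and 55 in the DFO libraries and for 49, 57 and 63 in the VE libraries. The group means were 51.3 ± 8.33 in CON, 93.3 ± 41.7 in FAC, 72.3 ± 15.3 in DFO and 56.3 ± 7.02 in VE (SD, n = 3). FAC replicates 1 and 2 lay above all CON and VE libraries, and FAC replicate 3 lay among them. With every library brought to the smallest total, the expected numbers were 34.7, 58.0 and 46.3 in CON, 69.0, 103 and 35.4 in FAC, 57.3, 63.9 and 41.4 in DFO and 36.2, 46.4 and 43.6 in VE. The difference between FAC and the other groups was smaller at equal depth, and the order of the FAC libraries stayed. Without FAC replicate 2 the FAC mean was 71.5, close to the DFO mean. The other entries were found in 209 to 230 of 415 in CON and 245 to 338 in FAC, highest in the same FAC replicate 2.

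Of the 87 members counted in a single library, 32 were counted in FAC replicate 2, with 1 to 59 counts and a median of 16. DFO replicate 2 held 11 of them with a median of 75 counts, FAC replicate 1 held 9, and each other library between 1 and 6. FAC replicate 3 had 54 members in all and 3 of its own, so the higher FAC mean came from the other 2 libraries of the group.

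**Figure D2:**
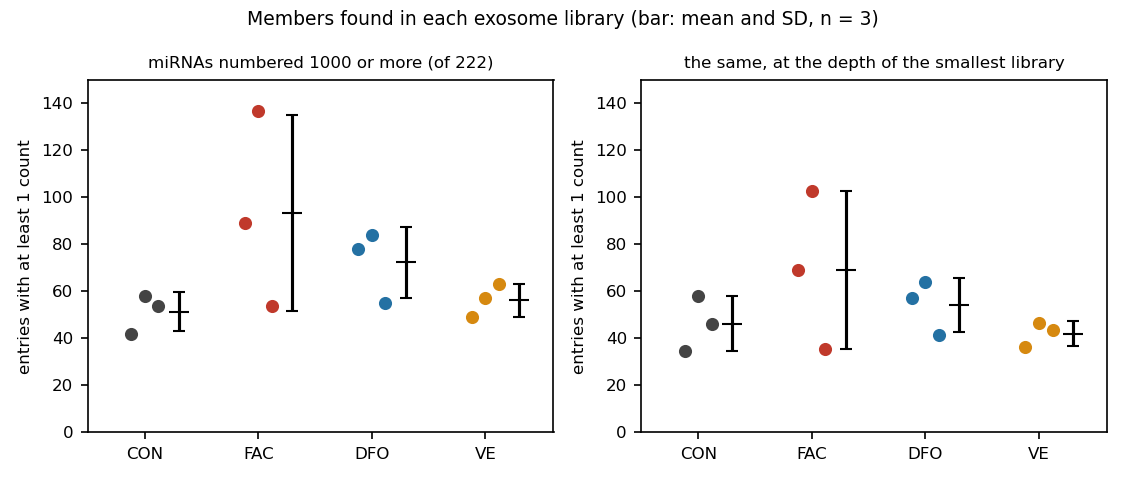
Number of members with at least 1 count (y axis) in each library by group (x axis), as counted on the left and brought to the depth of the smallest library on the right; points are libraries, the bar beside them the mean and SD of 3. FAC replicate 2 stands highest in both panels, with 137 and 103 members.

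Within a library, the counts of the members were seldom between 3 and 9. Of the 820 counts above 0, 232 (28.3%) were of 1 or 2, 60 (7.32%) of 3 to 9 and 528 (64.4%) of 10 or more, and of the 3023 counts of the other entries 15.4% were of 1 or 2 and 8.14% of 3 to 9. The counts of 10 or more started at different levels in the libraries. In FAC replicate 2, 71 of 137 members had 10 to 49 counts, while in DFO replicate 1 only 2 of 78 did and 47 had 100 or more. In CON replicate 3, 27 members had 1 or 2 counts, 9 had 3 to 99 and 18 had 100 or more. The counts from 3 to 9 were most frequent in CON replicate 2, with 9 of 58, and in VE replicate 1, with 9 of 49.

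**Figure D3:**
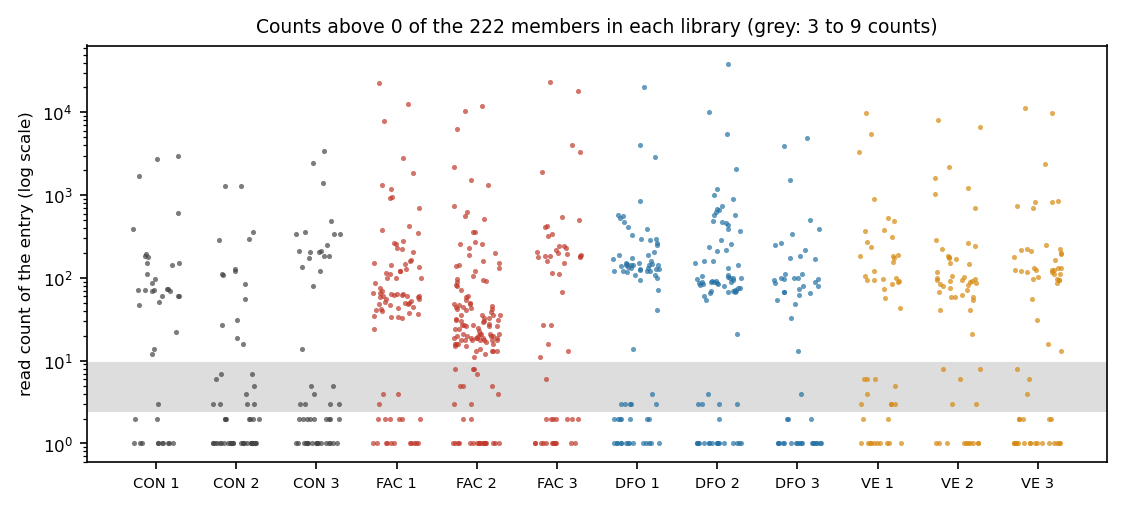
Read count of every member above 0 (y axis, log scale) in each of the 12 libraries (x axis); each point is a member, and the grey band covers 3 to 9 counts. Between 1 and 10 points fall in the band in each library, and the median of the points above it is lowest in FAC replicate 2, at 32 counts.

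The members held 0.865%, 0.952% and 1.59% of the miRNA counts in CON, 0.780%, 0.808% and 1.04% in FAC, 1.24%, 1.43% and 1.06% in DFO and 1.08%, 0.868% and 0.894% in VE, so that every group overlapped with CON, while the DFO libraries lay above the FAC libraries. Without the most abundant member, miR-1981-5p, the DFO and FAC shares overlapped, at 0.565% to 0.702% and 0.482% to 0.617%. Of the library read total, the members held 0.0358% on average in CON, 0.214% in FAC, 0.166% in DFO and 0.112% in VE. The 95% Wilson interval of the first CON library ran from 0.849% to 0.882%, so that the spread between libraries was far larger than counting error, which is all that such intervals cover since reads are amplified. Most of the share belonged to miR-1981-5p and miR-1198-5p, which held between 52.6% and 73.2% of the members' counts in each library. The 40 members in the 1000 numbers held 83.0% of the counts of the set, and the 63 in the 6000 numbers and 60 in the 7000 numbers held 2.79% and 1.70%.

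miR-1981-5p, from the mirtron of Marc2, was the most abundant member and ranked 23 of the 637 entries by mean level. Its level was 2218, 3349 and 5381 CPM in CON, 2659, 1616 and 4728 in FAC, 7073, 6800 and 3684 in DFO and 2485, 2438 and 3551 in VE. The libraries overlapped in each of the 5 comparisons tested below, and the widest difference, FAC against DFO, was a log2 fold change of -0.96 (standard error 0.58, adjusted p = 0.458 in edgeR's quasi-likelihood test). Its 3p arm was rare, with 271 counts over 6 libraries and 99.8% of the reads of the hairpin from the 5p arm.

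miR-1198-5p, from an intron of Gripap1 on the X chromosome, followed with 2400, 3441 and 3832 CPM in CON, 1463, 1398 and 3676 in FAC, 1397, 1836 and 2968 in DFO and 4465, 2960 and 3097 in VE. The libraries overlapped in these comparisons too, and none passed the threshold given below. miR-1964-3p, from an intron of the zinc finger gene Zfp84 on chromosome 7, was at 1390, 945 and 531 CPM in CON, 156, 74.9 and 825 in FAC, 988, 987 and 1146 in DFO and 1488, 797 and 756 in VE. All FAC libraries lay below all DFO libraries, by a log2 fold change of -1.56 (standard error 0.79, adjusted p = 0.404 in edgeR's quasi-likelihood test). Its unadjusted p was 0.0488. It was 0.134 and 0.165 without FAC replicate 1 or 2 and 0.0655, 0.0665 and 0.0776 without DFO replicate 1, 2 or 3, with log2 fold changes of -1.60 to -1.23.

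miR-1839-5p was at 90.9, 81.6 and 769 CPM in CON, 911, 843 and 383 in FAC, 199, 372 and 84.1 in DFO and 140, 381 and 218 in VE. Its FAC levels lay above all DFO and all VE levels, with log2 fold changes of 1.70 (standard error 0.94) and 1.53 (standard error 0.94) that did not pass the threshold (adjusted p = 0.458 and 0.521 in edgeR's quasi-likelihood test). The hairpin lies in the non-coding gene 2900076A07Rik on chromosome 7 and is annotated as a small Cajal body RNA, a guide for the modification of spliceosomal RNAs.

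Of the other members found in every library, miR-3102-5p.2-5p was at 502, 50 and 2184 CPM in CON, 137, 83.6 and 673 in FAC, 194, 119 and 253 in DFO and 407, 448 and 258 in VE. miR-5099 was at 71.3, 771 and 272 CPM in CON, 215, 175 and 44.3 in FAC, 59.6, 79.1 and 186 in DFO and 168, 587 and 258 in VE. miR-3474, from an intron of Actr5 on chromosome 2, was at 9.83, 18.4 and 324 CPM in CON, 81.2, 34.3 and 111 in FAC, 295, 215 and 291 in DFO and 237, 256 and 233 in VE. The last of these was steady within DFO and within VE, where every library lay above every FAC library, and varied most within CON. It did not pass the threshold in any comparison. miR-3057-5p, miR-6944-3p and miR-6239 ranged over the 12 libraries from 4.72 to 178, from 1.36 to 286 and from 0.452 to 149 CPM, and their libraries overlapped in each of the 5 comparisons. miR-1249-3p, also among the 10 most abundant members, was at 536 CPM in CON replicate 3 and at 0 in CON replicate 1.

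Sequences annotated as small nucleolar or Cajal body RNA recurred in the set. In 9 members the mature sequence matched, without mismatch, a transcript that the annotation types as a small RNA other than a miRNA. These were miR-1839-5p, both arms of miR-1843a, miR-1843b-5p, both arms of miR-3068, miR-3084-5p, miR-3535 and miR-6516-5p. Together they held 36014 counts, 9.31% of the counts of the set, against 0.0053% of the counts of the other entries for 3 entries of that kind. For miR-1839-5p, with 21427 counts, and both arms of miR-3068, the match was the annotated gene of the miRNA itself. The other 6 members matched a gene of another name, and whether it lies at the same place as the miRNA hairpin was not compared. Whether reads of the 9 came from a miRNA hairpin or from fragments of the other annotated RNA cannot be told apart in these counts. Nuclear tRNAs and repeat elements were not among the RNAs searched, so a match of any member to them could not be found.

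Of 23 hairpins with both arms in the table, 9 gave over 90% of their reads from 1 arm. miR-1839 gave 99.3% and miR-7687 91.5% from the 5p arm, and miR-1943 2137 counts of 5p against 1 of 3p. miR-6944, a mirtron of the drebrin gene Dbn1 on chromosome 13, was almost only 3p, with 2272 counts against 1 of 5p. The arms of miR-1934 were both frequent, with 488 counts of 5p and 1923 of 3p. miR-1306, which lies in an exon of Dgcr8 itself, was at 742 counts of 5p and 230 of 3p, counted together in 3 libraries. Its 3p arm was at 27.3 and 41.8 CPM in VE replicates 2 and 3, at 0.452 in VE replicate 1 and at 2.80 in FAC replicate 2, and at 0 in the other 8 libraries.

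**Figure D4:**
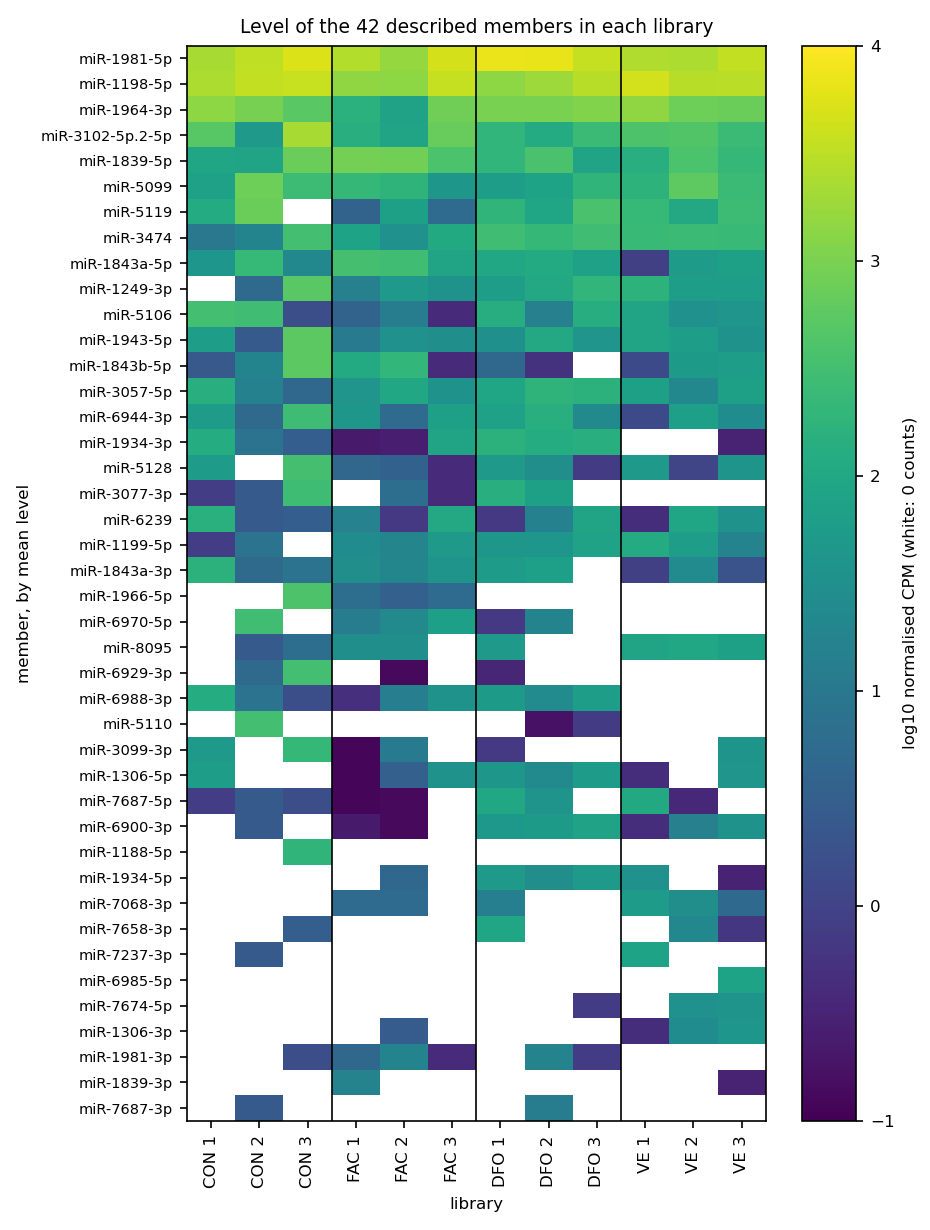
Level of the 42 members named by the rule for described members (rows, by mean level) in each library (columns), as log10 of normalised CPM with white for 0 counts; vertical lines part the groups. The first 6 rows are coloured in every library, and the lower rows in a few libraries each, such as miR-1188-5p in CON replicate 3 and miR-6985-5p in VE replicate 3.

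Group differences were tested with edgeR's quasi-likelihood test on the counts, in 1 fit of the 4 groups over the 547 entries with at least 10 counts in all. The threshold was the study's, a fold of at least 1.5 and a p under 0.05, here unadjusted, and Benjamini-Hochberg adjusted p-values over all tested entries are given beside it. 178 members were tested and 44 had under 10 counts. Since a member counted in 1 library enters through that library, many calls below rest on a single library. The coefficient of variation between replicates was 1.57 over all entries. No source says that the 3 libraries of a group came from separate cultures, so the p-values measure the spread between these libraries only. The 3 comparisons of FAC share the FAC libraries, and the 3 with CON share the CON libraries, so their results are not independent of each other.

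In FAC against CON, 11 of 178 members (6.18%) passed the threshold, 0 higher and 11 lower in FAC, compared with 9.51% of all tested entries, 2.38% higher and 7.13% lower. No member had an adjusted p under 0.05, as 0.183% of all entries did. Shares over all tested entries are given for the main fit only. Numbers of members under other fits, here and below, therefore describe the processing and not the members as against the other entries. With DESeq2, 4 members had an adjusted p under 0.05. With limma on RPM, which is relative to the library read total, 10 and 11 did at a pseudocount of 1 and of 0.1. The median log2 fold change of all tested entries was 0.957 and 2.08 in these 2 fits. The limma members past the unadjusted threshold were all higher in FAC, opposite to the direction of the 11. Scaling to the library read total in place of the miRNA counts moved the median of all entries by 2.98 on the log2 scale, and 17 members then passed, all of them higher in FAC, so the direction holds only relative to the other miRNAs. The median log2 fold change was -0.28 over the 71 members counted in both groups and 0.27 over the 347 entries counted in both, and 0.00 for members and for all entries when those at 0 in one group were set at their bound. The libraries of the 2 groups did not overlap for 7 members (3.93%), 6 higher and 1 lower in FAC, against 13.3% of all entries, 10.1% higher and 3.29% lower, and these 7 were not among the 11.

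The 11 lower members were miR-5106, miR-5119, miR-5128, miR-1966-5p, miR-5110, miR-6929-3p, miR-1188-5p, miR-3077-3p, miR-1943-5p, miR-7014-5p and miR-7070-5p. The first 4 are those the study names, in whatever direction, and were chosen there on these same libraries. Their calls here are therefore not independent evidence. Of the 11, 7 had over 90% of their CON counts in 1 library, and 1, miR-5106, passed the threshold whichever of the 6 libraries was left out.

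miR-5106 was at 319, 292 and 1.57 CPM in CON and at 3.98, 12.4 and 0.406 in FAC. It was at 133, 14.9 and 130 in DFO and at 82.7, 33.9 and 41.2 in VE. All FAC libraries lay below all DFO and all VE libraries, but 2 of them lay above CON replicate 3. In edgeR's quasi-likelihood test FAC was lower than CON by a log2 fold change of -5.18 (standard error 1.66, adjusted p = 0.0978), than DFO by -4.03 (standard error 1.57, adjusted p = 0.189) and than VE by -3.22 (standard error 1.51, adjusted p = 0.491). The first and second calls held whichever library was left out, and the third had an unadjusted p of 0.108, 0.131 and 0.0857 without FAC replicate 1, FAC replicate 3 or VE replicate 1. Scaled to the library read total, the 3 log2 fold changes were -1.98, -2.30 and -1.66 and none passed. With limma at either pseudocount none of the 3 calls was kept.

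miR-5119, from an intron of Cdk12, a kinase of the transcription machinery, was at 117, 763 and 0 CPM in CON, 3.98, 68.8 and 5.48 in FAC, 184, 87.0 and 371 in DFO and 223, 106 and 269 in VE. FAC lay below DFO and VE in every library and overlapped with CON through the CON library at 0. FAC was lower than CON by a log2 fold change of -3.49 (standard error 1.25, adjusted p = 0.143 in edgeR's quasi-likelihood test), than DFO by -3.03 (standard error 1.22, adjusted p = 0.196) and than VE by -2.93 (standard error 1.22, adjusted p = 0.438). Without CON replicate 2 the first was -0.92 and did not pass, and with library read totals it turned to 0.35. The second fell short without FAC replicate 1 (-2.46), FAC replicate 3 (-2.48) or DFO replicate 3 (-2.37), and the third without FAC replicate 1 (-2.24) or FAC replicate 3 (-2.26).

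miR-5128, from an intron of Strbp on chromosome 2, was at 58.2, 0 and 332 CPM in CON, 4.45, 3.61 and 0.406 in FAC, 48.6, 29.0 and 0.751 in DFO and 47.4, 1.09 and 39.3 in VE. Its level was under 5 CPM in all 3 FAC libraries and in 1 library of each other group. It passed the threshold against CON, with a log2 fold change of -5.50 (standard error 2.08, adjusted p = 0.189 in edgeR's quasi-likelihood test), which was -3.12 without CON replicate 3 and then did not pass. Against DFO and VE the log2 fold changes were -3.19 (standard error 1.87) and -3.35 (standard error 1.88), short of the threshold.

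miR-1966-5p had another pattern. It was at 395 CPM in CON replicate 3 and at 0 in the other CON libraries, at 6.44, 3.47 and 5.48 in FAC, or 55, 26 and 27 reads, and at 0 in all 6 DFO and VE libraries. Against CON it was called lower in FAC (log2 fold change -4.67, standard error 2.26, adjusted p = 0.47 in edgeR's quasi-likelihood test), and without CON replicate 3 the direction turned to a log2 fold change of 7.26. Its calls were also lost without FAC replicate 1 (-4.86), FAC replicate 2 (-4.42) or FAC replicate 3 (-4.65). Against the floor of 3 counts per library, FAC was at least 4.03-fold above DFO and at least 4.54-fold above VE, and both calls (adjusted p = 0.159 and 0.339 in edgeR's quasi-likelihood test) held without any one library. Each call was kept in 7 of 10 other ways of fitting. Both were lost with DESeq2, in a fit of the 2 compared groups alone and with limma at a pseudocount of 1.

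Among the other members lower in FAC than in CON, miR-5110 was at 319 CPM in CON replicate 2, which is 121 reads, and at 0 in the other CON and all FAC libraries. miR-1188-5p, from the imprinted non-coding gene Rian on chromosome 12, was at 189 CPM in CON replicate 3, or 120 reads, and at 0 in the other 11 libraries. miR-6929-3p, from the end of an intron of Ptges3l, was at 0, 5.27 and 324 CPM in CON and at 0, 0.134 and 0 in FAC. Each of these 3 depends on a single CON library, without which it fell under 10 counts and was not tested. The FAC group was at least 234-fold lower than CON for miR-5110 and at least 139-fold lower for miR-1188-5p, on means carried by that 1 library. Their adjusted p-values were 0.0687 for miR-5110, 0.0762 for miR-6929-3p and 0.109 for miR-1188-5p in edgeR's quasi-likelihood test.

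miR-3077-3p, from Sap18, a histone deacetylase subunit gene on chromosome 14, was at 0.819, 2.63 and 286 CPM in CON and 0, 6.41 and 0.406 in FAC. Its log2 fold change of -5.38 (standard error 2.16, adjusted p = 0.256 in edgeR's quasi-likelihood test) turned to 0.71 without CON replicate 3 and was -4.71, short of the threshold, without FAC replicate 1. miR-1943-5p was at 60.6, 2.63 and 557 CPM in CON and 11.7, 34.5 and 30.5 in FAC, and its log2 fold change of -3.02 (standard error 1.5, adjusted p = 0.497 in edgeR's quasi-likelihood test) was -0.19 without CON replicate 3. It was also short of the threshold without FAC replicate 1 (-2.65), FAC replicate 2 (-3.33) or FAC replicate 3 (-3.07). miR-7014-5p, at 0, 2.63 and 335 CPM in CON and 7.73, 10.7 and 0.203 in FAC, and miR-7070-5p, at 59.0 CPM in CON replicate 1 alone, each passed in 2 of the 6 fits, not without that CON library nor without any FAC library.

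**Figure D5:**
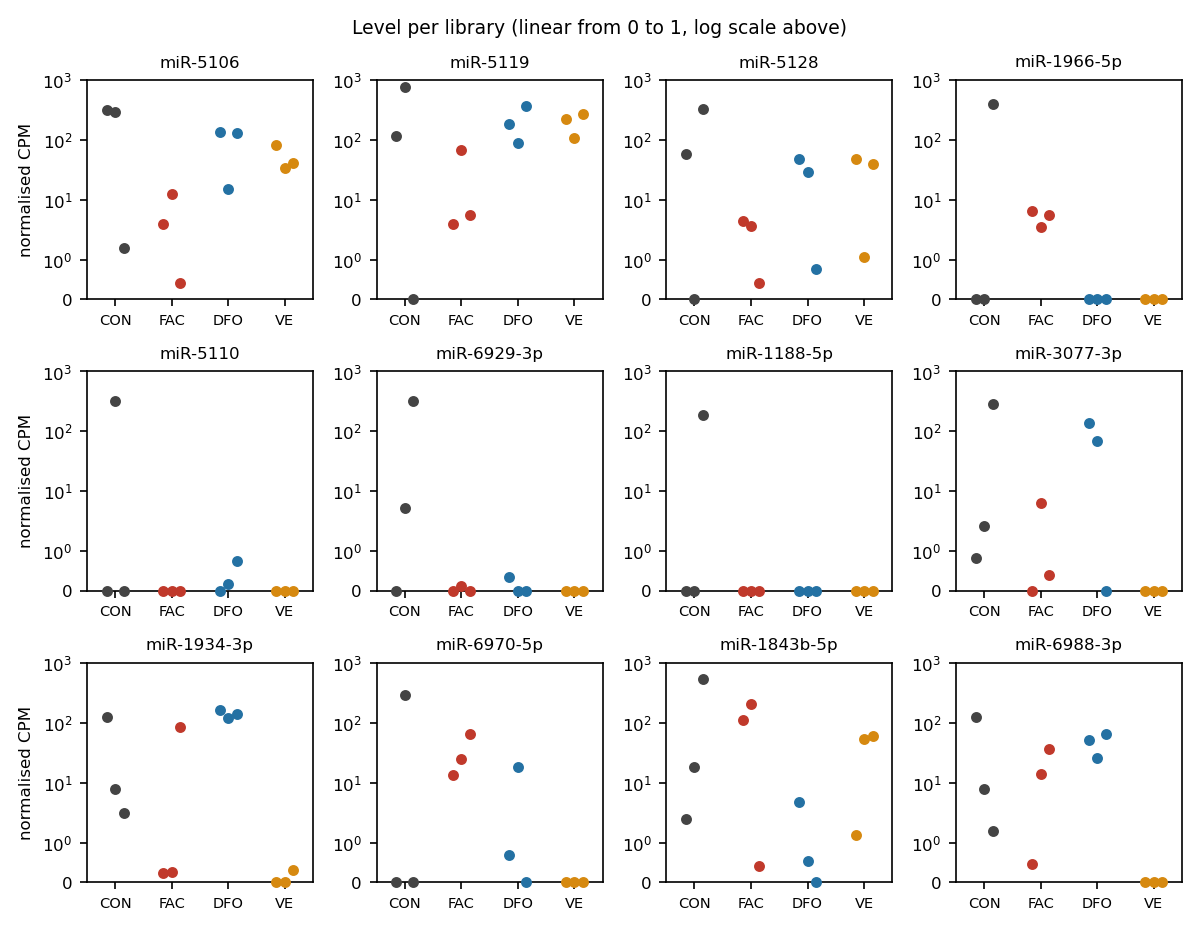
Normalised CPM (y axis, linear from 0 to 1 and logarithmic above) of 12 members in each library, by group (x axis); each point is a library. miR-5106 is low in FAC against DFO and VE, miR-1966-5p is above 0 in all 3 FAC libraries and in no DFO or VE library, and miR-5110, miR-6929-3p and miR-1188-5p are high in 1 CON library each.

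In FAC against DFO, 16 members (8.99%) passed the threshold, 2 higher and 14 lower in FAC, compared with 12.2% of all tested entries, 4.75% higher and 7.5% lower. No member had an adjusted p under 0.05, as 0.914% of all entries did, and with DESeq2 5 members did and with limma 2. The 14 lower members were miR-5106, miR-5119, miR-1964-3p, miR-7687-5p, miR-6900-3p, miR-7658-3p, miR-3077-3p, miR-7661-3p, miR-7046-5p, miR-7028-5p, miR-7067-3p, miR-3572-5p, miR-7043-3p and miR-6958-5p, and the 2 higher were miR-1843b-5p and miR-1966-5p. The low group was at 0 in all libraries for 9 of the 16, and 7 had over 90% of the counts of their high group in 1 library. Libraries did not overlap for 14 members (7.87%), 4 higher and 10 lower in FAC, against 16.6% of all entries, 10.1% higher and 6.58% lower, and 5 of the 16 calls were among them. The median log2 fold change was -0.95 over the 93 members counted in both groups and 0.23 over the 384 entries counted in both, and with entries at 0 in one group at their bound it was 0.00 and 0.08. With library read totals, 9 members passed, 5 of them higher in FAC.

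miR-1843b-5p, from an intron of Cop1, a ubiquitin ligase gene on chromosome 1, was at 113, 205 and 0.406 CPM in FAC and 4.82, 0.538 and 0 in DFO. It was higher in FAC by a log2 fold change of 5.83 (standard error 1.75, adjusted p = 0.0603 in edgeR's quasi-likelihood test), and this held without any one library and under all 10 other ways of fitting, although FAC replicate 3 lay among the DFO libraries. In CON it was at 2.46, 18.4 and 538 CPM, and in VE at 1.36, 53.2 and 60.3. Its close relative miR-1843a-5p was at 330, 294 and 82.9 CPM in FAC, 101, 112 and 72.8 in DFO, 41.8, 221 and 22.0 in CON and 0.903, 55.4 and 68.5 in VE, and did not pass the threshold in any of the 5 comparisons.

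miR-6900-3p, from an intron of Ndufa10, a subunit gene of respiratory complex I, was at 45.5, 52.2 and 75.8 CPM in DFO and 0.234, 0.134 and 0 in FAC. Its FAC libraries together held 3 reads and its DFO libraries 524, a pooled ratio of 373 (95% exact counting interval 127 to 1814). This interval, like those of the pooled ratios below, covers counting error only. It does not cover the spread between libraries and is no bound on the group difference. miR-7687-5p was at 98.9, 39.4 and 0 CPM in DFO and 0.117, 0.134 and 0 in FAC, a pooled ratio of 541 (149 to 4482) from 507 reads against 2. Both calls held without any one library and under all 10 other ways of fitting, with adjusted p-values of 0.189 and 0.159 in edgeR's quasi-likelihood test.

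The pair with the same seed was called in the same direction. miR-3077-3p was at 140, 69.2 and 0 CPM in DFO and miR-7661-3p at 50, 17.9 and 0, and FAC was at 0, 6.41 and 0.406 for the first and at 0 for the second. Both were called lower in FAC, with adjusted p-values of 0.257 and 0.276 in edgeR's quasi-likelihood test. The first was short of the threshold without FAC replicate 1 (-4.54) or DFO replicate 1 (-3.93), and the second passed in 3 of the 6 fits with a library left out. miR-7658-3p was at 86.8 CPM in DFO replicate 1 and at 0 in the other DFO and all FAC libraries, so that both groups were at 0 without it. The remaining 6, miR-7046-5p, miR-7028-5p, miR-7067-3p, miR-3572-5p, miR-7043-3p and miR-6958-5p, were held almost wholly by 1 DFO library each, and passed in 2 of the 6 fits with a library left out, none of them without that library.

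In FAC against VE, 21 members (11.8%) passed the threshold, 8 higher and 13 lower in FAC, compared with 9.32% of all tested entries, 4.39% higher and 4.94% lower. No member had an adjusted p under 0.05, as 0.366% of all entries did, and with DESeq2 6 members did and with limma 0 or 1. The 8 higher members were miR-6970-5p, miR-1934-3p, miR-6988-3p, miR-1966-5p, miR-3077-3p, miR-7009-5p, miR-12194-3p and miR-12185-3p. The balance of directions rested on the fit: without a composition factor 9 of 17 were higher in FAC, with DESeq2 11 of 17, with library read totals 14 of 18, and without FAC replicate 1 it was 7 of 8. The low group was at 0 throughout for 16 of the 21. Libraries did not overlap for 22 members (12.4%), 13 higher and 9 lower in FAC, against 14.6% of all entries, 9.87% higher and 4.75% lower, and 8 of the calls were among them. The median log2 fold change was -1.21 over the 62 members counted in both groups and -0.02 over the 339 entries counted in both, and 0.00 and 0.11 with entries at 0 in one group at their bound.

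The members higher in FAC were mostly ones that were not counted in any VE library. miR-6970-5p was at 13.4, 25.0 and 65.4 CPM in FAC, or 114, 187 and 322 reads, and at 0 in all VE libraries, at least 30.6-fold higher in FAC. miR-6988-3p was at 0.468, 14 and 37.2 CPM in FAC and at 0 in VE, at least 15.2-fold higher. Both calls held without any one library and under all 10 other ways of fitting, with adjusted p-values of 0.0607 and 0.196 in edgeR's quasi-likelihood test.

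miR-1934-3p was at 0.234, 0.267 and 84.9 CPM in FAC and at 0, 0 and 0.314 in VE, and without FAC replicate 3 its log2 fold change was 1.05 and did not pass. In DFO it was at 164, 123 and 138 CPM, and in CON at 123, 7.90 and 3.14. Its 5p arm was at 51.0, 29.0 and 50.3 CPM in DFO and at 0 in all CON libraries. miR-3077-3p was at 0 in all VE libraries, and FAC was at least 2.01-fold higher, a call that was lost without FAC replicate 2. miR-7009-5p was at 3.86, 13 and 0 CPM in FAC and passed in 2 of 6 such fits, miR-12194-3p at 0.117, 2.27 and 38.2 in 1, and miR-12185-3p at 0.234, 3.47 and 46.3 in 0.

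Of the 13 members lower in FAC than in VE, miR-5119, miR-5106 and miR-6900-3p did not overlap between the groups. miR-6900-3p was at 0.452, 14.9 and 37.1 CPM in VE, a pooled ratio of 137 to FAC (95% exact counting interval 46.1 to 673). Its call held without VE replicate 1 or 2, and its unadjusted p was 0.0656 without VE replicate 3 and 0.0544, 0.0823 and 0.0674 without FAC replicate 1, 2 or 3. The others were miR-7687-5p, miR-7237-3p, miR-6985-5p, miR-7674-5p, miR-7658-3p, miR-7012-5p, miR-7028-5p, miR-7093-3p, miR-7672-3p and miR-6998-5p, each counted in 1 or 2 VE libraries. miR-7237-3p was at 79.0 CPM in VE replicate 1 and miR-6985-5p at 77.9 CPM in VE replicate 3, each at 0 in the other VE and all FAC libraries. miR-7674-5p was at 33.5 and 39.0 CPM in VE replicates 2 and 3. For these 3 the unadjusted p was 0.0689, 0.0696 and 0.0751 without FAC replicate 1 and 0.0742, 0.0804 and 0.0869 without FAC replicate 2, miR-7674-5p was at 0.0513 without FAC replicate 3, and miR-7237-3p and miR-6985-5p were not tested without VE replicate 1 and VE replicate 3. miR-7687-5p was at 107 CPM in VE replicate 1, and its call was lost without it (log2 fold change -0.81). miR-7658-3p was at 21.5 CPM in VE replicate 2, and its unadjusted p was 0.188 without it and 0.0647 and 0.0796 without FAC replicate 1 or 2. The other 5, miR-7012-5p, miR-7028-5p, miR-7093-3p, miR-7672-3p and miR-6998-5p, were counted in 1 VE library each and passed in 2 of the 6 fits, lost or not tested without that library or any FAC library.

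The DFO and VE groups were also compared with CON, since both received ferric citrate with a second agent. In DFO against CON, 12 members (6.74%) passed the threshold, 3 higher and 9 lower in DFO, compared with 7.68% of all tested entries, 2.74% higher and 4.94% lower. With DESeq2 6 of 10 were higher, scaled to the library read total 18 of 20, and without CON replicate 3 4 of 7. The adjusted p was under 0.05 for 2 members (1.12%, against 0.548% of all entries). These were miR-1966-5p (adjusted p = 0.0401 in edgeR's quasi-likelihood test), at 395 CPM in CON replicate 3 alone and at 0 in DFO, and miR-1843b-5p (adjusted p = 0.0465), at 538 CPM in CON replicate 3. Without that library both groups were at 0 for miR-1966-5p, and miR-1843b-5p had a log2 fold change of -2.24 and did not pass.

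The 3 members higher in DFO than in CON did not overlap between the groups, as was the case for 4 members in all (2.25%), all higher, against 6.03% of all entries, 3.84% higher and 2.19% lower. miR-6900-3p was at 0, 2.63 and 0 CPM in CON and so higher in DFO by a pooled ratio of 119 (95% exact counting interval 21.3 to 4727), from 524 reads against 1. miR-1934-5p was at 0 in CON and at least 8.65-fold higher in DFO. miR-1199-5p was at 0.819, 7.90 and 0 CPM in CON and 43.8, 42.3 and 75.8 in DFO, a log2 fold change of 4.33 (standard error 2.19, adjusted p = 0.641 in edgeR's quasi-likelihood test). The unadjusted p of miR-1934-5p was 0.0587 without CON replicate 1 and 0.0507 without CON replicate 2. The calls of miR-6900-3p and miR-1199-5p were lost without any library but CON replicate 2, with unadjusted p-values of up to 0.104 and 0.103, and the log2 fold change of miR-1199-5p was then between 3.77 and 4.48.

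The other members lower in DFO were miR-6929-3p, miR-5110, miR-3099-3p, miR-1188-5p, miR-3102-5p.2-5p, miR-7070-5p and miR-7014-3p. miR-3102-5p.2-5p, from Arhgef17 on chromosome 7, was the only one of them counted in all 6 libraries, with 502, 50.0 and 2184 CPM in CON and 194, 119 and 253 in DFO. Its log2 fold change of -2.27 (standard error 0.93, adjusted p = 0.52 in edgeR's quasi-likelihood test) was -0.45 without CON replicate 3 and -2.03 without DFO replicate 2, both short of the threshold. miR-3099-3p was at 49.1, 0 and 212 CPM in CON and 0.689, 0 and 0 in DFO, a pooled ratio of 428 (95% exact counting interval 117 to 3557), and its unadjusted p was 0.11 without CON replicate 3. miR-6929-3p, miR-5110 and miR-1188-5p were not tested without the 1 CON library that held them, and miR-7070-5p and miR-7014-3p, both counted in CON replicate 1, passed in 1 and in 0 of 5 fits with another library left out.

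In VE against CON, 16 members (8.99%) passed the threshold, 3 higher and 13 lower in VE, compared with 10.4% of all tested entries, 3.29% higher and 7.13% lower. Scaled to the library read total, 25 members passed, 18 of them higher. The adjusted p was under 0.05 for 6 members (3.37%, against 2.01% of all entries), all lower in VE. They were miR-3077-3p, miR-1966-5p, miR-6970-5p, miR-1934-3p, miR-6929-3p and miR-5110, with adjusted p-values of 0.0102, 0.0167, 0.021, 0.0252, 0.0301 and 0.0341 in edgeR's quasi-likelihood test. In VE, 5 of them were at 0 in all 3 libraries and miR-1934-3p had 1 read in 1 library.

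What carried these 6 was 1 library of CON in nearly every case. miR-3077-3p was at 0.819, 2.63 and 286 CPM in CON, at least 85.4-fold above VE, and without CON replicate 3 its unadjusted p was 0.0583. miR-6970-5p was at 287 CPM in CON replicate 2 and at 0 in the other CON libraries, so that both groups were at 0 without that library. miR-1966-5p was at 0 in both groups without CON replicate 3, and miR-6929-3p and miR-5110 then fell under 10 counts, without CON replicate 3 or 2, and were not tested. Of the 6, only miR-1934-3p, at 123, 7.90 and 3.14 CPM in CON against 0, 0 and 0.314 in VE, held without any one library, with a pooled ratio of 564 (95% exact counting interval 99.8 to 22421) from 155 reads against 1. Of the 155 reads, 150 were in CON replicate 1, and the fitted log2 fold change of -8.22 was -5.20 without that library and ranged from -10.28 to -5.20 with one library left out. With limma at either pseudocount the call of miR-1934-3p was lost.

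miR-6988-3p, at 124, 7.90 and 1.57 CPM in CON and at 0 in VE, was at least 39.3-fold lower in VE, held without any one library and had an adjusted p of 0.0553 in edgeR's quasi-likelihood test. Its call was lost with limma at either pseudocount. In DFO miR-6988-3p was at 52.0, 25.6 and 64.5 CPM. miR-6988-3p was thus at 0 in VE and counted in all libraries of the 3 other groups, with 0.468 CPM in FAC replicate 1. miR-1934-3p was also counted in all libraries of those groups. Its level in FAC replicates 1 and 2, 0.234 and 0.267 CPM, was under the 0.314 CPM of VE replicate 3. The other members lower in VE were miR-7009-5p, miR-1188-5p, miR-12194-3p, miR-6910-5p, miR-7070-5p and miR-7014-3p. Of these, miR-7009-5p was lost without CON replicate 2 and miR-1188-5p was not tested without CON replicate 3, while miR-12194-3p, miR-6910-5p and miR-7070-5p passed in 2 of the 6 fits and miR-7014-3p in 0.

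The 3 members higher in VE than in CON were miR-8095, miR-1199-5p and miR-7068-3p, none of which overlapped between the groups, among 9 members (5.06%), 6 higher and 3 lower in VE, that did not overlap against 13.0% of all entries, 8.04% higher and 4.94% lower. miR-8095, from an intron of the diacylglycerol kinase gene Dgkg on chromosome 16, was at 84.0, 95.1 and 70.7 CPM in VE and 0, 2.63 and 6.29 in CON. VE was higher by a log2 fold change of 4.83 (standard error 2.39, adjusted p = 0.46 in edgeR's quasi-likelihood test), which was between 4.19 and 4.93 in the 5 of 6 fits with a library left out that lost the call. miR-1199-5p was at 121, 61.2 and 17.6 CPM in VE, with a log2 fold change of 4.64 (standard error 2.21) that was short of the threshold without CON replicate 1 (4.14), CON replicate 3 (4.02), VE replicate 1 (3.87) or VE replicate 2 (4.69). miR-7068-3p, from the mirtron of Cherp shown above, was at 54.7, 29.2 and 5.03 CPM in VE and at 0 in CON, at least 5.89-fold higher, and passed only without VE replicate 3 when a library was left out.

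Across the 4 groups together, 38 members (21.3%) had an unadjusted p under 0.05, compared with 18.5% of all tested entries, and 8 members (4.49%) had an adjusted p under 0.05, compared with 4.57%. The 8 were miR-5110, miR-6929-3p and miR-1966-5p, each with an adjusted p of 0.000122 in edgeR's quasi-likelihood test, and miR-1188-5p, miR-3077-3p, miR-1934-3p, miR-6970-5p and miR-1843b-5p, with 0.00306, 0.00399, 0.0208, 0.0336 and 0.0498. Of these 8, 7 were highest in 1 CON library, replicate 2 for miR-5110 and miR-6970-5p and replicate 3 for miR-6929-3p, miR-1966-5p, miR-1188-5p, miR-3077-3p and miR-1843b-5p. Both CON libraries are the shallowest of the 12, with 452021 and 700405 miRNA counts. In the 5 comparisons between 6.18% and 11.8% of the members were called, and between 7.68% and 12.2% of all entries.

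Calls were also counted by class of hairpin, without a test between the classes. Of the 69 tested members with hairpins at an intron end, 3, 6, 8, 2 and 7 passed the threshold in FAC against CON, FAC against DFO, FAC against VE, DFO against CON and VE against CON. Of the 74 tested members with hairpins elsewhere, 6, 8, 7, 6 and 6 did, and of the 35 without a hairpin or sequence in the reference 2, 2, 6, 4 and 3. Of all tested entries, 9.51%, 12.2%, 9.32%, 7.68% and 10.4% did. At least 1 count was found for 13.0 ± 4.36 of the 82 members at an intron end in CON, 29.0 ± 18.7 in FAC, 18.3 ± 7.23 in DFO and 10.7 ± 0.577 in VE (SD, n = 3), and for 30.7 ± 4.51, 46.3 ± 14.6, 42.3 ± 5.03 and 35.0 ± 4.58 of the 98 with hairpins elsewhere.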

How the data were processed

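Small RNA of granulosa cell exosomes was sequenced in 12 libraries. For each, the authors deposited a read count per miRNA entry and the same values as RPM, relative to 1 library total, under the name TPM. Mouse build mm9 is in the submitters' processing notes. The aligner, miRNA database, trimming and handling of reads with several matches are not given in the sources used here. Members, lists and the rule for described members were chosen with earlier results of these data known. The rule took the 4 members the study names, the 10 most abundant, up to 5 per direction and comparison with the smallest p, all with an adjusted p under 0.05, arms of up to 6 hairpins, and members found in all 12 libraries, 42 in all. Other members are named where a count is spelled out.

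Counts were fitted with edgeR 4.0.16 (R 4.3.3) using TMM factors, 1 fit of 4 groups and a minimum of 10 counts. The script was tested on simulated data. Folds against a group at 0 used a floor of 3 counts per library, and with 1 to 3 counts a pooled ratio with an exact interval. That interval pools the reads of a group and leaves out the spread between its libraries. DESeq2 1.42.0 and limma 3.58.1 on log2(RPM + 1) and log2(RPM + 0.1) were alternatives. Sequences, hairpins and host genes were from RefSeq GRCm38.p6 and GENCODE M21, used for names and placement within genes only, with no coordinates taken over to mm9.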

Additional observations from a re-analysis of the deposited data

How the results depend on the processing

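The number of members past the threshold moved with scaling, filter and tool. Shares over all tested entries are given above for the main fit only. The numbers here therefore describe the processing and are not a result about the members as against the other entries. Scaled to the library read total it was 17 in FAC against CON (17 higher, 0 lower), 9 in FAC against DFO (5 and 4), 18 in FAC against VE (14 and 4), 20 in DFO against CON (18 and 2) and 25 in VE against CON (18 and 7), so that the direction of the majority turned in all 5. This scaling moved the median of all entries by 2.98, 1.22, 1.25, 1.45 and 0.99 on the log2 scale. With limma on log2(RPM + 1) the numbers were 21 (21 and 0), 19 (13 and 6), 15 (12 and 3), 16 (16 and 0) and 13 (13 and 0), and on log2(RPM + 0.1) 28 (28 and 0), 23 (18 and 5), 21 (19 and 2), 16 (16 and 0) and 10 (10 and 0). DESeq2 gave 10 in FAC against DFO, 17 (11 and 6) in FAC against VE, 10 (6 and 4) in DFO against CON and 10 in VE against CON. The stricter filterByExpr filter, which tests fewer members, gave 4, 9, 11 (6 and 5), 7 and 9. Without a composition factor FAC against VE gave 17 (9 and 8). With one library left out the ranges were 6 to 13, 6 to 17, 8 to 16, 7 to 12 and 9 to 15. The majority turned without FAC replicate 1 (8, 7 higher and 1 lower) or FAC replicate 3 (12, 7 and 5) in FAC against VE, and without CON replicate 3 (7, 4 and 3) in DFO against CON. Across the 4 groups 15 members passed with DESeq2, 11 with filterByExpr and 19 with limma on log2(RPM + 1), and 22 to 35 with one library left out.

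With a replicate block the numbers were 4, 9, 9 (6 and 3), 6 and 9, and 11 across the 4 groups. The replicate numbers gave no sign of pairing: the mean correlation of deviations was 0.00421 over 18 pairs of libraries with the same number (-0.086 to 0.069) and -0.00202 over 36 with different numbers.

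In FAC against CON, miR-5119 turned to 0.35 scaled to the library read total and to 0.074 and 0.76 with limma at the pseudocounts of 1 and 0.1. miR-1966-5p turned to 0.11 and 1.67 with limma and to 7.26 without CON replicate 3, in a range of -5.26 to 7.26 with one library left out. miR-3077-3p turned to 0.71 without CON replicate 3, in a range of -8.79 to 0.71. miR-1943-5p turned to 0.26 scaled to the library read total and to 0.90 and 1.80 with limma. In DFO against CON, miR-3102-5p.2-5p turned to 0.61 and 0.89 with limma. For the described members, 222 of the values with one library left out kept call and direction, 77 lost the call and 2 turned, and of the other alternatives 340, 156 and 10 did. Fits that did not test the member are not in these numbers. This was so where it fell under 10 counts without 1 library, as miR-5110 did, or did not pass the stricter filter.

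Counting only members with at least 3 reads gave means of 27 in CON, 74.7 in FAC, 52.3 in DFO and 42 in VE, and equal depth gave 46.3, 69.1, 54.2 and 42.1. With one library left out the means were 48 to 56, 71.5 to 113, 66.5 to 81 and 53 to 60 in CON, FAC, DFO and VE. The share of the set in the library read total was 0.0358%, 0.214%, 0.166% and 0.112% in these groups, and without miR-1981-5p its share of the miRNA counts was 0.808% in CON, the highest of the 4, 0.559% in FAC, 0.643% in DFO and 0.686% in VE. With one library left out that share, with all members, was 0.909% to 1.27%, 0.794% to 0.926%, 1.15% to 1.33% and 0.881% to 0.989%. Where no construction of the alternative shows it, the cause was not tested. Depth limits members at a few reads most in CON, where 3 counts were up to 7.90 CPM.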
